A study of Mus musculus with 4 samples.

Results

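MHC class II presentation genes were followed through the cells of mouse brain tumors that form after loss of Trp53 and expression of human MYCN. The 9 genes were chosen by name from the pathway, and each had a row among the 21861 features counted in all 4 libraries. They are the class II chains H2-Aa, H2-Ab1 and H2-Eb1, the invariant chain Cd74, the peptide loading factors H2-DMa, H2-DMb1 and H2-DMb2, the chain H2-Oa of the loading inhibitor, and Ciita, the coactivator of class II transcription. Single-cell 3′ RNA-sequencing had been performed on the tumors of 4 mice, of which mice 4 and 5 were taken at 43 days of age (P43) and mice 6 and 7 at 70 days (P70). Wherever 4 values are given for a gene or class they stand in the order of mice 4, 5, 6 and 7, the first pair P43 and the second P70. All 4 animals were hGFAP-cre::TP53Fl/Fl::lsl-MYCN, so that Cre driven by the hGFAP promoter acted in neural progenitors and their descendants, and P43 and P70 differed in age alone as far as the labels say. No brain without these alleles and no treated tumor was among the 4 libraries, and each mouse was 1 library and 1 replicate. Mouse and library therefore cannot be told apart.

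Class II molecules carry peptides from the endosomes of a cell to its surface, where CD4+ T cells read them. An α and a β chain pair in the endoplasmic reticulum with the invariant chain, which guides them to endosomes. There proteases trim the invariant chain to a short peptide, and the H2-DM dimer exchanges it for antigenic peptide while H2-O restrains H2-DM. Dendritic cells, macrophages and B cells are the classical presenting cells, and CIITA switches the genes on together through a module of short motifs shared by their promoters.

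Of the 9 genes, 7 lie within the H2 cluster on chromosome 17 (GRCm38, GENCODE annotation), from H2-Oa at chr17:34092340-34095234 to H2-Eb1 at chr17:34305867-34316674. Promoter windows of RefSeq (GRCm38.p6, 250 bases before to 50 after the start) were at hand for H2-Aa, H2-Eb1, H2-Oa, H2-DMa, H2-DMb1 and H2-DMb2 and for H2-Ob, the partner chain of H2-Oa. A window of H2-Eb2, a further class II chain outside the 9 genes, was at hand too. The sequences below are shown because they carry the letters that these promoters share, written 5′ to 3′ on the strand of the gene with the 2 motifs searched in capitals, namely TGATTGG and a longer one made of AAC, any 3 bases and TGATG. They lie at chr17:34287853-34287928 on the minus strand for H2-Aa, and on the plus strand at chr17:34305751-34305826 for H2-Eb1, chr17:34145102-34145177 for H2-DMb2 and chr17:34238791-34238866 for H2-Ob.
H2-Aa: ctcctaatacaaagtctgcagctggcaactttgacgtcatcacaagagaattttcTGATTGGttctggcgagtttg
H2-Eb1: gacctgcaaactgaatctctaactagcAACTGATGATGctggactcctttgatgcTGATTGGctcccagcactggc
H2-DMb2: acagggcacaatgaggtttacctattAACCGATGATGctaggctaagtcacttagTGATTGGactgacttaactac
H2-Ob: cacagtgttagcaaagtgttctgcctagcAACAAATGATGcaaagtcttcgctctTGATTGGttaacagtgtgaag

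TGATTGG, which holds the reverse complement of CCAAT, began 50 bases before the start of H2-Aa, 61 before H2-Eb1, 45 before H2-Oa, 63 before H2-DMb1, 92 before H2-DMb2 and 59 before H2-Ob. In the window of H2-Eb2 it began 102 bases before the start. The longer motif began 89 bases before H2-Eb1, 92 before H2-DMb1, 121 before H2-DMb2 and 85 before H2-Ob, and between the 2 motifs lay 17, 18, 18 and 15 bases. The windows of H2-Aa, H2-Oa and H2-Eb2 did not hold the longer motif. The motifs do not overlap, and both strands were searched. Among all 32851 promoter windows of the same length, 7.82% held TGATTGG and 0.615% held the longer motif, whereas both in this order within 40 bases occurred in 6 windows (0.0183%), the 4 named above and those of Cic and 1700048F04Rik. The letters had been read off these windows first, so the counts describe the windows and test nothing, and neither motif was found in the 2 windows of H2-DMa.

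The libraries held 13106786 to 40621958 UMIs (unique molecular identifiers, each 1 counted mRNA molecule) in 1739 to 3693 barcodes, of which 1456 to 3469 per mouse passed the limits on genes, mitochondrial share and UMIs. Median depth was 1419, 4200, 4587 and 10449 UMIs per cell, so shares of cells were counted in cells sampled down to 2000 UMIs, and shallower cells were left out. This left out 219, 101, 146 and 27 EC, 1401, 43, 93 and 58 OL-like cells, 22, 16, 34 and 19 T/NK cells, 40, 7, 7 and 13 cDC2-like cells and 13, 1, 46 and 53 myeloid cells, and 170 of the 175 B lineage cells of mouse 6. Pairs of libraries shared 1 to 3 barcodes. The Y chromosome genes summed to 225 CPM in the P43 library labelled female and to 0.652 CPM in the P43 library labelled male, which goes against both labels, whereas both P70 libraries matched theirs. Both libraries are labelled P43. Whether they were exchanged with each other or with other libraries was not tested, so their age rests on the labels alone. Sex was not used. The unit of level, CPM, is the count of a gene among 1000000 UMIs of one class and mouse, and intervals cover counting error only.

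Clusters were built without the class II genes and named from marker lists. Tumor clusters, recognised by human MYCN and luciferase, were oligodendrocyte lineage-like (OL-like), neuroblast-like (NB-like) and astrocyte-like (AC-like). The other cells formed endothelial (EC), mural, myeloid, dendritic (DC), T/NK, B lineage, neutrophil, mature oligodendrocyte (MOL) and oligodendrocyte progenitor (OPC) classes, and the DC class was made of a cDC2-like, a migratory (migDC-like) and a plasmacytoid (pDC-like) cluster. DC numbered 99, 80, 496 and 68. Myeloid cells, which held macrophage and monocyte markers together, numbered 46, 62, 803 and 141 in the same order. Results rest on classes with at least 20 cells in a mouse unless a smaller number is given.

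Class II RNA was concentrated in DC and myeloid cells. Together with the B lineage cluster they held 87.7%, 99.4%, 97.2% and 95.8% of all UMIs of the 9 genes, while making up 4.91%, 11.95%, 54.0% and 6.17% of the cells. The summed level of the 9 genes was highest in cDC2-like cells, at 45370, 49903, 48662 and 52284 CPM, a mean of 49055 ± 2880 CPM (SD, n = 4). Myeloid cells followed at 31020, 41131, 29192 and 29489 CPM (mean 32708 ± 5672), below the cDC2-like cells of the same mouse in 4 of 4 mice and on average 1.51-fold lower (log2 difference 0.60 ± 0.24, SD).

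**Figure D1:**
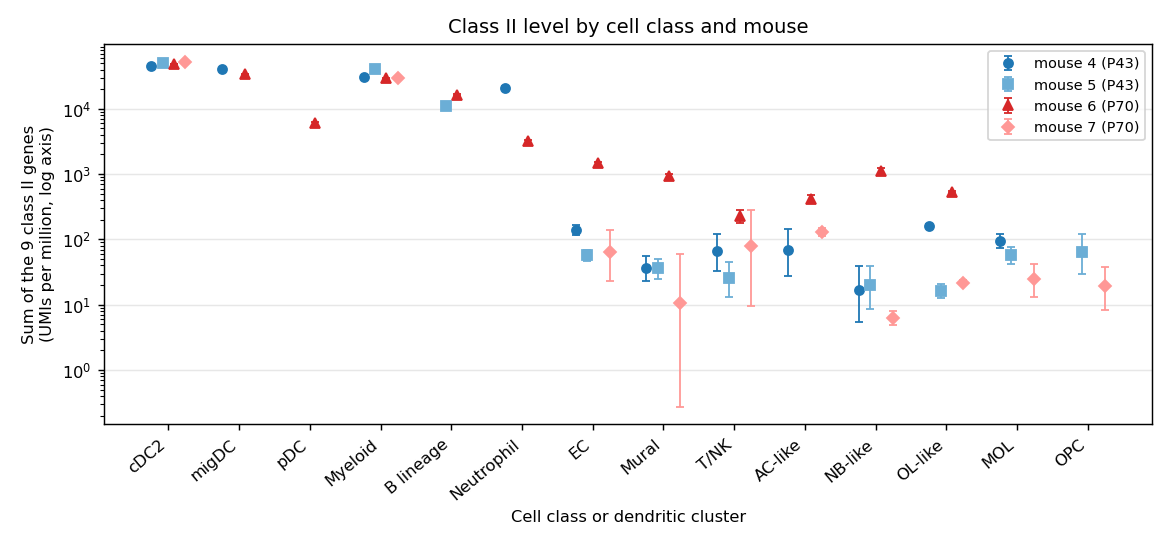
Summed level of the 9 class II genes in CPM (log axis) by cell class or dendritic cluster, 1 point per mouse with at least 20 cells of the class and bars for the exact 95% counting interval. cDC2-like and myeloid cells of all 4 mice lie between 29192 and 52284, whereas mouse 6 is the highest of the mice in EC, mural, T/NK, OL-like, NB-like and AC-like cells.

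The order below the cDC2-like cells was resolved only in part. migDC-like cells, at least 20 of which came from mouse 4 and from mouse 6, had 40796 CPM in the former and 33607 CPM in the latter and stood above the myeloid cells of the same mouse by 0.30 ± 0.14 on the log2 scale. pDC-like cells, numerous enough only in mouse 6 (58 cells), had 6006 CPM and were 8.09-fold below the cDC2-like cells of that mouse. With 10 CPM added the gap was 15.4-fold for H2-Eb1, 12.3-fold for H2-Ab1 and 6.11-fold for Cd74, and least for H2-DMa (3.29-fold) and H2-Oa (3.02-fold), in 1 mouse without replicate. Of the B lineage cluster, mouse 5 had 11120 CPM and mouse 6 had 16507 CPM, below the myeloid cells by 1.35 ± 0.75 on the log2 scale. Among vessel, T/NK, tumor and oligodendrocyte classes the mean levels ran from 432 CPM in EC to 41.7 CPM in OPC. The means of EC, mural and NB-like cells were carried by mouse 6, at 1469, 945 and 1100 CPM, while the other mice lay between 57.1 and 138 CPM, 10.7 and 37.0 CPM, and 6.30 and 19.7 CPM. In this order neighbours differed by less than their spread between mice, save EC, which exceeded NB-like cells in 4 of 4 mice by 1.56 ± 0.95.

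The B lineage cluster was mixed. Its median of 837 UMIs per cell was low, and in mouse 6 its macrophage markers summed to 8498 CPM against 829 CPM for its B cell markers. Cells with a UMI of Cd79a, Cd79b or Ms4a1, the B cell receptor partners and CD20, numbered 10 of 18, 5 of 32, 16 of 175 and 0 of 5. The 9 genes summed to 21828, 11358 and 10524 CPM in these cells, lower than in the cDC2-like cells of each of the 3 mice. The neutrophil cluster was divided in the same way. Its cells with a neutrophil marker held 192 CPM (3 cells, mouse 4), 82.4 CPM (10 cells, mouse 5), 1273 CPM (96 cells, mouse 6) and 605 CPM (4 cells, mouse 7), whereas 20 cells without any in mouse 4 held 30318 CPM.

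The chains that form the class II dimer were the most abundant members besides Cd74. H2-Aa, the α chain of I-A, reached 7987, 9394, 9446 and 9512 CPM in cDC2-like cells. In myeloid cells the level of H2-Aa was 5576, 7453, 5139 and 5367 CPM. The levels of the 2 clusters did not overlap across mice, and H2-Aa was 1.56-fold higher in cDC2-like cells (log2 difference 0.64 ± 0.26, n = 4). H2-Ab1, the β chain of I-A, showed 9694, 11000, 11295 and 10877 CPM in cDC2-like cells and 6302, 8738, 7448 and 6197 CPM in myeloid cells, a 1.51-fold difference in the same direction in 4 of 4 mice. Relative to H2-Aa, H2-Ab1 was counted 1.14 to 1.21 times in cDC2-like cells of the 4 mice. In myeloid cells the ratio was 1.13, 1.17, 1.45 and 1.15, and mouse 6 stood apart there (interval 1.43 to 1.47). In migDC-like cells it ran from 0.840 to 1.35, where the lowest value came from 15 cells of mouse 7 and mouse 5 had 9 cells.

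H2-Eb1, the β chain of I-E, differed between mice in its ratio to H2-Aa. Its level in cDC2-like cells was 4060, 4506, 5273 and 9103. CPM It was 1.49-fold higher than in myeloid cells (log2 difference 0.58 ± 0.35, higher in 4 of 4 mice). For each UMI of H2-Aa the cDC2-like cells held 0.508, 0.480, 0.558 and 0.957 UMIs of H2-Eb1, with an exact 95% interval of 0.887 to 1.033 in mouse 7. Mouse 7 stood apart from the other 3 mice, among them mouse 6 of the same age, whose intervals ended at 0.572 or lower. Myeloid cells gave 0.567, 0.526, 0.561 and 0.921, and OL-like cells gave 0.512, 0.513 and 1.21 in mice 4, 6 and 7. Mouse 7 was the highest of the mice measured in each of these classes. In migDC-like cells mouse 7 was highest as well, at 0.831 from 15 cells, with an interval that overlapped that of mouse 5.

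**Figure D2:**
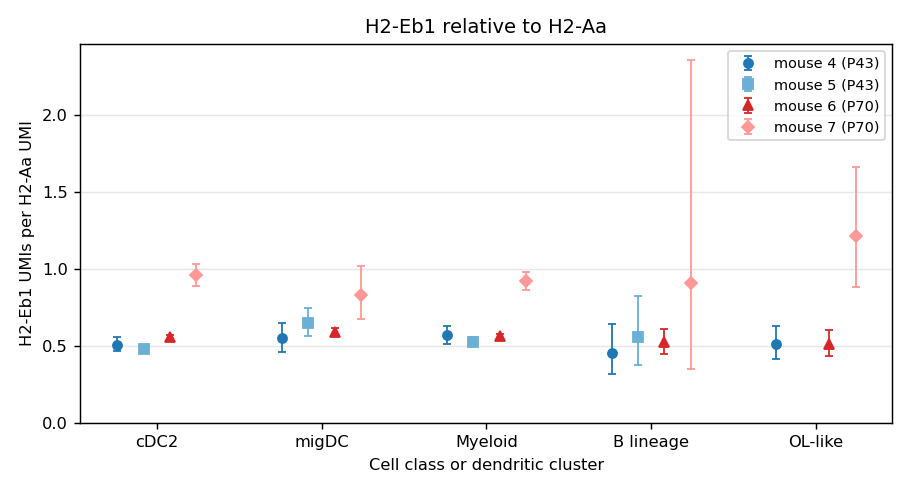
H2-Eb1 UMIs per H2-Aa UMI by class, 1 point per mouse with the exact 95% counting interval, for classes in which the 2 genes together had enough UMIs; small clusters are included (mouse 7 has 15 migDC-like and 5 B lineage cells, mouse 5 has 9 migDC-like cells). Mouse 7 lies at 0.957 in cDC2-like and 0.921 in myeloid cells, and the other 3 mice lie between 0.480 and 0.567 there.

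The invariant chain Cd74, at chr18:60803848-60812652 (GRCm38), was the most counted member, with 21570, 22755, 20512 and 20555 CPM in cDC2-like cells and 14901, 19376, 12811 and 11895 CPM in myeloid cells. The levels of the 2 clusters did not overlap across mice, and Cd74 was 1.47-fold higher in cDC2-like cells (log2 difference 0.56 ± 0.24). It made up 47.5%, 45.6%, 42.2% and 39.3% of the UMIs of the 9 genes in cDC2-like cells and 48.0%, 47.1%, 43.9% and 40.3% in myeloid cells, a share that was higher in both P43 mice than in both P70 mice in either cluster.

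The loading factors were detected at lower levels than the chains. H2-DMa, the α chain of H2-DM, had 893, 921, 747 and 866 CPM in cDC2-like cells and 537, 770, 409 and 544 CPM in myeloid cells, which overlapped across mice but were lower than the cDC2-like cells of the same mouse in 4 of 4. H2-DMb1, one of its β chains, had 546, 635, 608 and 804 CPM against 292, 585, 359 and 458 CPM. These overlapped across mice as well, again with the lower value in myeloid cells of 4 of 4 mice. In the annotation H2-DMa overlaps Brd2, and H2-DMb1 overlaps no other gene. The other β chain, H2-DMb2, had 150, 211, 196 and 166 CPM in cDC2-like cells and 46.0, 56.1, 33.6 and 13.1 CPM in myeloid cells, a 4.31-fold difference (log2 2.11 ± 0.63) without overlap.

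Because H2-DMb1 and H2-DMb2 are near-identical genes whose reads the counting could have split, their ratio was also read within cells. Per UMI of H2-DMb1 there were 0.275, 0.332, 0.323 and 0.207 UMIs of H2-DMb2 in cDC2-like cells and 0.158, 0.0959, 0.0935 and 0.0287 in myeloid cells. migDC-like cells had a still higher ratio of 0.684 in mouse 6 (interval 0.520 to 0.897), above the 0.363 at which the interval of the cDC2-like cells ended. How the reads of the pair were assigned was not tested.

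H2-Oa, the α chain of the inhibitor H2-O, divided DC from myeloid cells most strongly. It had 144, 164, 272 and 242 CPM in cDC2-like cells, and 10.2, 22.0, 9.85 and 7.89 CPM in myeloid cells. The levels of the clusters did not overlap across mice, and the difference was 9.54-fold with 10 CPM added to both levels (log2 3.25 ± 0.69, n = 4). In mice 4 and 7 the myeloid value rests on 2 and 3 UMIs. H2-Ob, its partner and not one of the 9 genes, showed 102, 115, 111 and 118 CPM in cDC2-like cells and 15.3, 12.02, 10.3 and 2.63 CPM in myeloid cells. In migDC-like cells H2-Oa was at 213 CPM in mouse 4 and 136 CPM in mouse 6, above the cDC2-like cells in the former and below them in the latter.

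**Figure D3:**
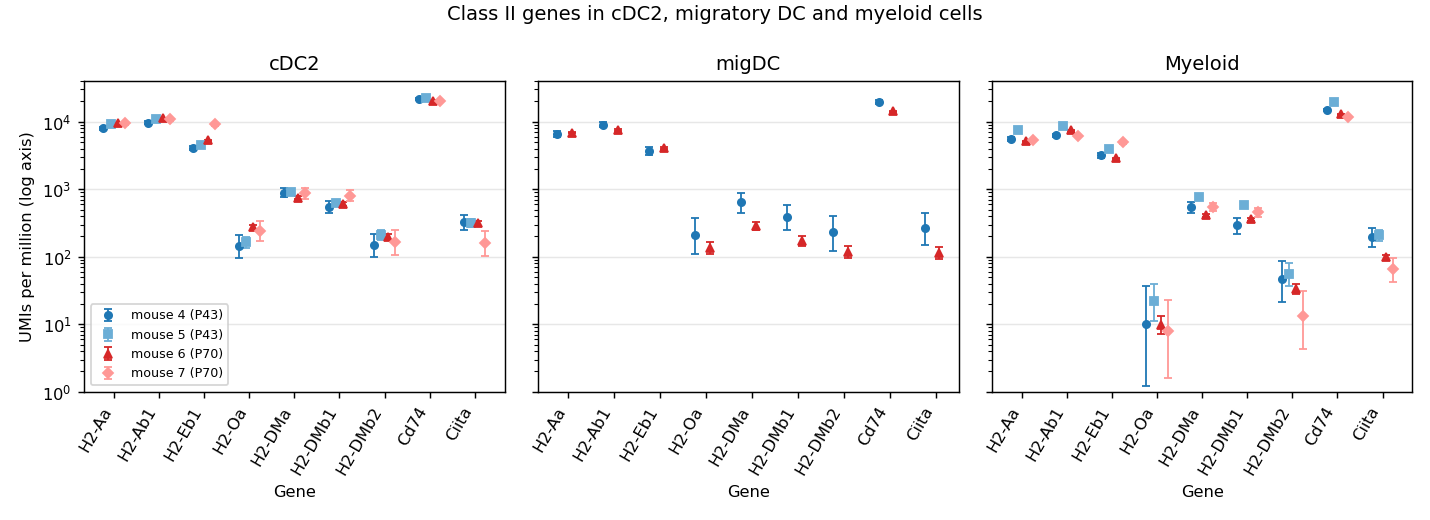
Level of each of the 9 genes in CPM (log axis) in cDC2-like, migDC-like and myeloid cells, 1 point per mouse with at least 20 cells and bars for the exact 95% counting interval. H2-Oa lies between 144 and 272 in cDC2-like and between 7.89 and 22.0 in myeloid cells, while the chains and Cd74 differ by no more than 1.56-fold on average.

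Ciita, the coactivator, had 326, 317, 313 and 159 CPM in cDC2-like cells and 194, 206, 98.2 and 65.7 CPM in myeloid cells, on average 2.02-fold less in the latter (log2 1.01 ± 0.45, lower in 4 of 4 mice). At 2000 UMIs per cell, 36.4%, 36.2%, 42.7% and 21.6% of cDC2-like cells and 27.3%, 41.0%, 16.5% and 10.2% of myeloid cells held a Ciita UMI. In T/NK cells, which should lack it, the shares were 0 of 39, 1 of 124, 0 of 67 and 0 of 3 cells. A count of 0 was taken to allow up to 3 cells, or 4.48% of the 67. Median depth before thinning was 1146.5 to 3192 UMIs per T/NK cell, against 852.5 to 9675 in cDC2-like and 2322 to 8126.5 in myeloid cells. Ciita lies at chr16:10480059-10528418 (GRCm38) and overlaps Dexi in the annotation. In migDC-like cells it was at 267 CPM in mouse 4 and 115 CPM in mouse 6, below the cDC2-like cells of the same mouse.

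**Figure D4:**
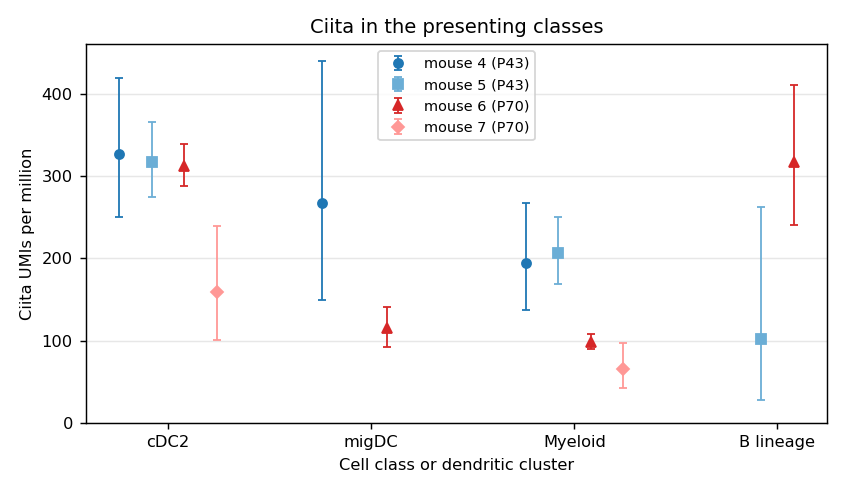
Ciita in CPM in the presenting classes, 1 point per mouse with at least 20 cells and bars for the exact 95% counting interval. Myeloid cells of mice 4 and 5 (P43) lie at 194 and 206, those of mice 6 and 7 (P70) at 98.2 and 65.7, and among cDC2-like cells mouse 7 alone is low, at 159.

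Single cells of the clusters differed in how evenly they carried class II RNA. Of 2000 UMIs, a cDC2-like cell held a median of 82, 95, 93 and 104 UMIs of H2-Aa, H2-Ab1, H2-Eb1 and Cd74 together, and at most 1.12% of cells in any mouse had fewer than 5. Myeloid cells held a median of 34, 93, 45 and 68.5, and 24.2%, 24.6%, 22.3% and 11.4% of them had fewer than 5. The myeloid class was thus a mixture of cells with high and with very low class II RNA in each mouse. pDC-like cells of mouse 6 had a median of 6.5 UMIs, and 38.9% had fewer than 5.

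At a finer resolution the myeloid class separated into a part named by monocyte markers (33, 49, 703 and 115 cells) and a part named by macrophage markers (12, 13, 105 and 28 cells). The 9 genes summed to 34142, 39865, 25870 and 34807 CPM in the monocyte part and to 21624, 44200, 44011 and 11975 CPM in the macrophage part, which had no common order across mice. Of the 9 genes, Ciita alone was lower in the macrophage part in 4 of 4 mice, at 63.3, 78.4, 89.4 and 11.3 CPM against 209, 241, 101 and 81.8 CPM.

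Between P43 and P70 no member passed the test in DC. The age test was edgeR's quasi-likelihood test on UMI sums per mouse with Benjamini-Hochberg adjustment over all genes of a class, and 109 of 5785 genes passed it in DC (1.88%). Of the 9 members, 0 passed, 1 had an unadjusted p under 0.05, and DESeq2 called 0. Their median log2 fold change was -0.03, beside -0.01 over all genes tested. H2-Eb1 came nearest, with a log2 fold change of 0.63 ± 0.25 (SE) and an adjusted p of 0.281. Mouse 7 was the highest, and the levels of 3636 and 4233 CPM at P43 and 4454 and 7752 CPM at P70 did not overlap. Ciita had 290, 286, 231 and 125 CPM in DC, without overlap, with a log2 fold change of -0.63 ± 0.31 and an adjusted p of 0.404 in the same edgeR test. Without mouse 6, which leaves 1 P70 mouse without a replicate, H2-Eb1 was higher and Ciita lower (log2 -1.20) at P70 in DC. Without the low-count filter 1 member was called, beside 361 of 13429 genes.

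In the cDC2-like cluster taken alone, where 2.08% of 5000 genes passed, 0 of the 9 members passed, 2 had an unadjusted p under 0.05, and DESeq2 called 0. H2-Eb1 had a log2 fold change of 0.73 ± 0.22 (edgeR, adjusted p 0.140) and H2-Oa one of 0.73 ± 0.26 (adjusted p 0.229), and for neither did the P43 and P70 mice overlap. The cDC2-like cluster of mouse 4 held 2220 CPM of the macrophage lysozyme gene Lyz2 against 449 to 782 CPM in the other mice, and its part in these values was not tested.

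Myeloid cells gave 0 of 8 members tested, against 18 of 5447 genes (0.33%), with 2 members at an unadjusted p under 0.05 and 0 called by DESeq2. Their median log2 fold change was -0.32, beside 0.02 over all genes tested. Ciita showed the largest difference, 194 and 206 CPM at P43 against 98.2 and 65.7 CPM at P70, with a log2 fold change of -1.18 ± 0.32 and an adjusted p of 0.218 by edgeR. Cd74 had a log2 fold change of -0.40 ± 0.17 (edgeR, adjusted p 0.430). Without mouse 6, which leaves 1 P70 mouse without a replicate, the log2 fold change of Ciita was -1.54. Whether the change differed between myeloid cells and DC was tested by a class by age term, for which 0.449% of 6235 genes passed edgeR and 0 of 9 members did (3 at an unadjusted p under 0.05, 0 by DESeq2).

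In EC of the vessels 764 of 8891 genes passed (8.59%, and 5.43% in the higher direction), and 5 of 5 members tested were called higher at P70. H2-DMa, with 2, 4, 28 and 2 UMIs, passed the low-count filter only through its level in the P70 mice. Its call is therefore no support for a change, and the count of 5 is not read against the background share. The other 4 members were too low to enter the test. The log2 fold changes by edgeR with Benjamini-Hochberg adjustment were 3.40 ± 0.71 for H2-Aa (adjusted p 0.0121), 4.04 ± 0.67 for H2-Ab1 (0.00325), 3.82 ± 0.46 for H2-Eb1 (5.04e-04), 3.53 ± 0.60 for H2-DMa (0.00384) and 3.52 ± 0.71 for Cd74 (0.00943). DESeq2 called 1 of the 9.

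The calls rest largely on mouse 6. Cd74 in EC had 60.3, 27.0, 660 and 10.7 CPM, the latter from 1 UMI in 40 cells. H2-Aa had 42.6, 7.14, 278 and 10.7 CPM, and H2-Ab1 had 21.8, 11.7, 332 and 0 CPM, where a count of 0 in mouse 7 allows up to 32.0 CPM. In mouse 7 the 5 tested members had 0 to 2 UMIs each, too few to place this mouse above or below the P43 mice. Without mouse 5, which leaves 1 P43 mouse, a member could pass the low-count filter through mouse 6 alone. Calls of members tested there are no support for a change. Without mouse 6, 0 of 4 were called, and 0 had an unadjusted p under 0.05. The log2 fold changes then turned to -1.01 for H2-Aa, -6.99 for H2-Ab1 and -1.95 for Cd74, of which the value for H2-Ab1 stands against a library at 0 UMIs and is no bound, and H2-Eb1 kept its direction at 1.19 (edgeR adjusted p 0.700).

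Within the EC of mouse 6 the UMIs were unevenly spread. A single cell with 20378 UMIs held 844 of the 1698 UMIs of H2-Aa, H2-Ab1, H2-Eb1 and Cd74 in 295 cells, 203 of the 399 of H2-Ab1 among them. The 8 pan-immune markers summed to 164, 71.9, 406 and 0 CPM in EC, with 8, 7, 8 and 0 of them detected. Lyz2 was highest in mouse 6 as well, at 9.36, 2.55, 79.0 and 21.3 CPM. In EC without any pan-immune UMI the 9 genes summed to 41.1, 36.9, 204 and 64.0 CPM (6 UMIs in mouse 7). There 1 of 2 members tested was called by edgeR, beside 607 of 7744 genes. H2-Eb1 had 4.26, 6.97, 23.5 and 21.3 CPM in these cells, the last from 2 UMIs. At such levels a member could pass the low-count filter through the P70 mice, so the call is no support for a change with age. The part of immune RNA in the EC values was not tested further.

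The share of EC with a UMI of any member was set beside that of T/NK cells. At 2000 UMIs it was 2.00%, 7.81%, 28.9% (exact 95% interval 21.7 to 36.8%, 149 cells) and 7.69% (1 of 13 cells). In T/NK cells the shares were 12.8%, 4.84%, 34.3% (interval 23.2 to 46.9%, 67 cells) and 0 of 3 cells. Median depth before thinning was 2032 UMIs in EC and 2551 in T/NK cells of mouse 6, and 3644.5 and 3192 in mouse 5. Mural, OL-like, NB-like and AC-like cells of mouse 6 gave 25.8%, 38.6%, 32.1% and 36.2%. In mice 4 and 6 the EC share was below that of T/NK cells, and in mouse 5 it was above it with overlapping intervals (5.37 to 10.9% and 1.80 to 10.2%). In EC without a pan-immune UMI the shares were 1.95%, 8.82%, 26.6% and 7.69%. The summed T/NK level was higher without integration and under the stricter mitochondrial limit, so this background depends on the processing. A share of EC above the level in these T/NK cells was thus not detectable, and what raised the shares of mouse 6 was not tested. Ciita had 0, 1, 5 and 0 UMIs in all EC (4.16 CPM in mouse 6), too few to compare.

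**Figure D5:**
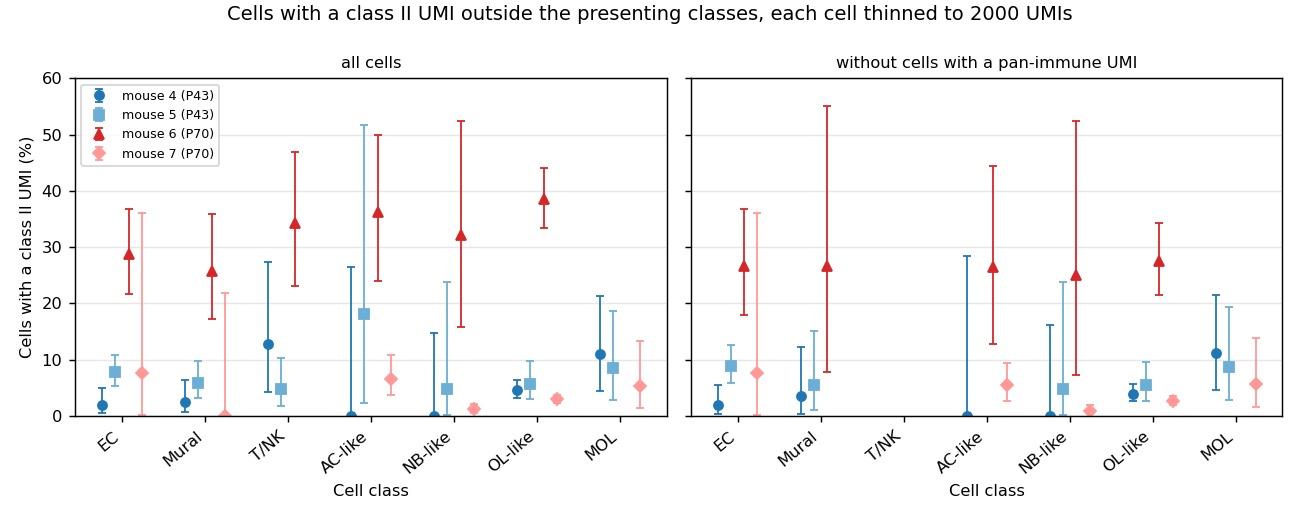
Share of cells with at least 1 UMI of the 9 genes (%), each cell thinned to 2000 UMIs, for vessel, lymphoid and tumor classes, with all cells (left) and without cells holding a pan-immune UMI (right, not applied to T/NK cells), 1 point per mouse with at least 10 such cells and the exact 95% interval. In the left panel mouse 6 lies between 25.8% and 38.6% in the 6 classes shown for it, with T/NK cells at 34.3%, and the other mice lie at or below 18.2%.

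Whether the change with age differed between classes was tested next. The class by age term of EC against DC passed for 6.51% of 9310 genes (4.56% higher) and for 8 of 9 members by edgeR, all but Ciita (adjusted p 0.0604). DESeq2 called 1 of 9 members, beside 75 of 2479 genes. Over the 9 members the median log2 difference was 3.59 with all mice and 3.59 without mouse 5. Without mouse 6, which leaves 1 P70 mouse, it was -0.18. All 9 entered the class by age test through their level in DC, whereas 5 passed the low-count filter in EC alone. H2-Oa and H2-DMb2 had 7 and 9 UMIs in EC of mouse 6 and 0 in EC of the other mice, and H2-DMb1 had 1, 1, 20 and 0 UMIs in EC. H2-DMa had 2, 4, 28 and 2 UMIs in EC. The calls of H2-Oa, H2-DMa, H2-DMb1 and H2-DMb2 are therefore no support for a change in EC, and the count of 8 is not read against the background share. EC against mural cells passed for 8.72% of 9876 genes (4.61% lower) and for 1 of 6 members, H2-Aa. Its fitted change was lower in EC (log2 -2.00 ± 0.61, edgeR adjusted p 0.0157). Mural cells had 6.43, 2.11, 201 and 0 CPM of H2-Aa, and no member was abundant enough to be tested there alone, where 17.5% of 8360 genes passed. The call of H2-Aa rests on mouse 6 and is no support for a difference between EC and mural cells.

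Tumor cells carried little class II RNA and no change with age was called. In OL-like cells 0 of 5 members passed edgeR, 0 had an unadjusted p under 0.05 and DESeq2 called 0, beside 0 of 11704 genes (0%), of which 521 had an unadjusted p under 0.05 and 49 passed DESeq2. The 9 genes summed to 162, 16.3, 531 and 21.9 CPM, so that mouse 6 was the highest and mouse 7 lay between the P43 mice. In NB-like cells the sums were 16.6, 19.7, 1100 and 6.30 CPM, and no member could be tested (2.63% of 5711 genes passed). The ratio of Cd74 to H2-Aa in OL-like cells, 2.37 in mouse 4, 2.01 in mouse 6 and 2.29 in mouse 7, compared with 2.16 to 2.70 in cDC2-like cells, and it was 6.5 in mouse 5 from 4 UMIs of H2-Aa. Lyz2 had the same order of mice in OL-like cells, at 22.1, 1.52, 45.8 and 4.93 CPM, and its part was not tested.

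In T/NK cells Cd74 was the 1 member that passed the low-count filter. It had 18.2, 6.43, 108 and 39.3 CPM, from 3, 3, 38 and 1 UMIs. It entered the test through its level in the P70 mice, so a call is no support for a change with age. Cd74 passed edgeR with a log2 fold change of 3.27 ± 0.64 (adjusted p 0.0450), as did 0.857% of 4436 genes (0.541% in the higher direction). It was not called by DESeq2, without mouse 5 or with up to 60000 UMIs per cell, and without mouse 6 it could not be tested. The log2 fold change turned to -1.04 without integration and to -1.07 with under 10% mitochondrial UMIs.

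In mature oligodendrocytes H2-Ab1 had more UMIs than H2-Aa and Cd74. MOL held 61 UMIs of H2-Ab1 in mouse 4, 43 in mouse 5 and 6 in mouse 7, or 83.3, 51.7 and 11.5 CPM, beside 3, 2 and 0 UMIs of H2-Aa and 2, 2 and 2 of Cd74. The ratio of H2-Ab1 to H2-Aa was 20.3 in mouse 4 (interval 6.64 to 101) and 21.5 in mouse 5 (5.60 to 183), against 1.14 to 1.21 in cDC2-like cells. The UMIs came from 14 of 65, 14 of 59 and 2 of 78 cells, of which 2, 1 and 0 also held H2-Aa and 0 also held Cd74, and the highest cells had 18 UMIs in mouse 4 and 18 in mouse 5. OL-like cells without pan-immune UMIs had 11.5, 5.72, 46.1 and 3.61 CPM of H2-Ab1 and 4.41, 0.915, 17.9 and 1.04 CPM of H2-Aa, higher for H2-Ab1 in 4 of 4 mice. When cells of up to 60000 UMIs were kept, the borders of the MOL cluster moved and its summed level dropped from 59.4 to 14.9 CPM.

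Other genes of the pathway were counted from a list of 28 symbols, 26 of which had a row. In DC 1 of 21 tested genes passed edgeR, in cDC2-like cells 1 of 19, in myeloid cells 2 of 19, in EC 5 of 17 and in mural cells 3 of 16, all higher at P70. In T/NK cells edgeR called 0 of 15 (6 at an unadjusted p under 0.05, 0 by DESeq2), in NB-like cells 0 of 10 (1 and 0) and in OL-like cells 0 of 21 (0 and 0). The list shares a background of 1.88% in DC, 0.33% in myeloid cells, 8.59% in EC and 17.5% in mural cells. Irf8, among the 5 called in EC, had 3.12, 2.55, 22.4 and 10.7 CPM there. It passed the low-count filter only through its level in the P70 mice, so its call is no support for a change. The count of 5 in EC is therefore not read against the background share, and DESeq2 called 1 in EC.

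Lgmn, the endosomal asparagine protease that cuts invariant chain and antigens, was among the genes called in DC, myeloid cells and EC. The call in DC was kept under 7 of 12 alternatives, and the cDC2-like cells, where Lgmn was called too, are part of that class. In cDC2-like cells it had 16.0 (3 UMIs), 60.5, 185 and 215 CPM, without overlap of the ages. The log2 fold change was 2.08 ± 0.42 (edgeR, adjusted p 0.0313), and the gene was called under 12 of 12 alternatives. In myeloid cells Lgmn had 384, 433, 1134 and 1451 CPM (log2 1.72 ± 0.24, adjusted p 0.0498 by edgeR). Ctsb, the lysosomal cysteine protease cathepsin B, had 813, 962, 2363 and 2766 CPM there (log2 1.60 ± 0.21, edgeR adjusted p 0.0398). Both myeloid calls were kept under 7 of 12 alternatives.

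In mural cells 3 of 16 pathway genes were called, a share near the 17.5% of all genes that passed there, so the count is no result about the pathway. Irf1 and Ifngr2 of the interferon-γ pathway were among those called higher at P70, with 37 mural cells in mouse 7. Irf1, a transcription factor of the interferon response, had 14.5, 14.8, 85.8 and 107 CPM (log2 2.80 ± 0.33, edgeR adjusted p 3.10e-05). Its log2 fold change ranged from 2.22 to 3.01 over 11 alternatives on the same mice. Ifngr2, a chain of the interferon-γ receptor, had 38.6, 38.0, 93.5 and 150 CPM (log2 1.64 ± 0.29, adjusted p 0.00107 by edgeR), with a range from 1.49 to 2.12 over the alternatives. For both genes the ages did not overlap, and both P70 mice were higher.

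Genes outside the pathway with the most similar pattern were found by Pearson correlation with the mean log2(CPM + 10) of H2-Aa, H2-Ab1, H2-Eb1 and Cd74 over 40 sums of class and mouse, among 10090 genes of at least 50 CPM in a sum. Among the nearest were Mpeg1 (r = 0.971), Wfdc17 (0.969), Pld4 (0.968), Il1b (0.964), Ifi207 (0.955), Ly86 (0.954), Plbd1 (0.946), Lgals3 (0.946) and Tifab (0.946). The sums share libraries and clusters, so r is a description. Of the members outside the mean, H2-DMb1 reached 0.983 and H2-Oa 0.742.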

How the data were processed

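Single-cell 3′ libraries of 4 tumors were analysed from the deposited gene by barcode matrices, which hold UMI counts that the authors made with Cell Ranger 6.0.2 on mm10, as named in the submitters' processing notes. The strand setting of the counting is not given in the sources used here. Barcodes were dropped below 200 genes, from 25% mitochondrial UMIs and above 40000 UMIs, and doublets were handled only by this UMI limit. Cells were normalised, integrated by mouse and clustered with Seurat 5.3.0 (R 4.3.3, 2000 variable genes, 30 principal components, resolution 0.5), with class II and related genes left out of the clustering. Clusters with at least 500 CPM of the reporters were called tumor, and the others were named from 22 marker lists, of which at least 3 markers had to be 2-fold higher than in the other cells with 10 CPM added, with the 10 leading genes checked against the name.

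UMI counts were summed per class and mouse for classes with at least 20 cells. Ages were compared with edgeR 4.0.16 (TMM normalisation, quasi-likelihood F test, Benjamini-Hochberg adjustment over all genes of a class, called at an adjusted p under 0.05), with 2 mice per age, and DESeq2 1.42.0 was an alternative. Cell classes were compared as differences of log2(CPM + 10) within a mouse. Shares were taken after thinning cells to 2000 UMIs, with exact binomial intervals, and levels carry exact Poisson intervals, each at 95%. The age test was tested on simulated data, in which 4-fold changes had been set in 200 genes, and found 92.5% of them in DC, 91.0% in EC, 76.5% in myeloid and 72.0% in OL-like cells. Of its calls 4.64%, 5.21%, 7.27% and 9.43% were false in these classes, and 8.00% in T/NK cells. The term of EC against DC found 69.0%, with 5.48% of its calls false. Other steps used Python 3.11.15, numpy 2.4.6, scipy 1.17.1, pandas 2.3.3 and matplotlib 3.10.9.

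All 9 members were reported, with pathway genes called in a class and genes among the 10 most similar to H2-Aa, H2-Ab1, H2-Eb1 and Cd74, of which some are not reported here. The members, lists and tests were chosen with earlier results of these data known. Alternatives were another tool, filter, resolution, integration, UMI limit, mitochondrial limit and thinning, and leaving out each mouse. P-values of the age test measure the spread between these 4 mice. In the class by age terms the mouse was a block, so differences between mice shared by both classes were removed. Their p-values and SE therefore do not measure that spread. The SE of 0.40 for H2-Ab1 in EC against DC stands beside 332 and 0 CPM in EC of mice 6 and 7.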

Additional observations from a re-analysis of the deposited data

Results flagged for a closer look

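The class by age term of EC against DC was called by edgeR with Benjamini-Hochberg adjustment for 8 of the 9 members, beside 6.51% of 9310 genes (4.56% higher). In EC alone 5 members passed the low-count filter. H2-Oa, H2-DMb1, H2-DMb2 and Ciita entered through their level in DC, so their values are no support for a change in EC. H2-DMa, with 2, 4, 28 and 2 UMIs in EC, passed the filter there only through the P70 mice, so its value is no support either. The count of 8 is therefore not read against the background share. The log2 difference was 3.05 ± 0.40 (SE) for H2-Aa, 3.59 ± 0.40 for H2-Ab1, 3.15 ± 0.43 for H2-Eb1 and 3.19 ± 0.37 for Cd74. For the loading genes it was 3.90 ± 0.63 (H2-DMa), 4.39 ± 0.81 (H2-DMb1), 5.93 ± 1.32 (H2-DMb2, adjusted p 3.63e-04 by edgeR) and 4.89 ± 1.39 (H2-Oa, adjusted p 0.0109 by edgeR). H2-DMb2 and H2-Oa had 0 UMIs in EC of 3 mice and 9 and 7 in mouse 6, so that these fitted values stand over groups at 0 and are no bounds. A single EC of mouse 6 held 844 of the 1698 UMIs of H2-Aa, H2-Ab1, H2-Eb1 and Cd74. With all mice DESeq2 called 1 of 9 members, beside 75 of 2479 genes. Without mouse 6 (P70 replicate 1), which leaves 1 P70 mouse, the median log2 difference of the 9 members was -0.18. Without mouse 5 that median was 3.59.

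Between EC and mural cells the term passed for H2-Aa alone of 6 members tested, at -2.00 ± 0.61 (edgeR adjusted p 0.0157). Beside it 8.72% of 9876 genes passed (4.61% lower). No member passed the low-count filter in mural cells alone, and H2-Aa had 4, 2, 183 and 0 UMIs there. The call therefore rests on mouse 6 and is no support for a difference between EC and mural cells. DESeq2 called 0 of 9 members, beside 133 of 4205 genes. Without mouse 6, which leaves 1 P70 mouse, the median log2 difference of the 4 members tested was 2.36.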

How the results depend on the processing

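No paired analysis was possible because the labels tie no P43 mouse to a P70 mouse. Replicates 1 and 2 only name the mice of an age. Under DESeq2 the genes called between ages numbered 63 in DC (109 by edgeR), 48 in cDC2-like cells (104), 261 in EC (764), 527 in mural (1461), 77 in myeloid (18), 49 in OL-like (0) and 10 in T/NK cells (38). The members called numbered 1 of 9 in EC and 0 of 8 in T/NK cells. For EC against DC they were 1 of 9 (75 of 2479 genes), and for EC against mural cells 0 of 9 (133 of 4205 genes). Without a low-count filter the genes called were 361 of 13429 in DC, 310 of 12723 in cDC2-like, 1180 of 13915 in EC and 1942 of 13824 in mural cells. They were 314 of 13381 in myeloid, 802 of 15455 in NB-like (150 with the filter), 3 of 16935 in OL-like and 145 of 12048 in T/NK cells. The members called were 1 of 9 in DC, 1 of 9 in cDC2-like, 7 of 9 in EC, 5 of 8 in mural, 2 of 8 in NB-like and 1 of 8 in T/NK cells. Without integration the summed level was 45127 CPM in cDC2-like (49055) and 1106 CPM in T/NK cells (99.04). Genes called were 273 in DC, 289 in cDC2-like, 9 in myeloid and 113 in T/NK cells, and Cd74 in T/NK cells reversed to -1.04 with 0 members called. The cDC2-like cluster of that run held 742 cells (451 with integration) and 7 migDC markers were raised in it. No separate migDC-like cluster was formed, so its values are not of the same cells. With under 10% mitochondrial UMIs the T/NK level was 1034 CPM, 11 genes and 0 members were called there, and Cd74 reversed to -1.07. The cause was not tested. With class II genes kept in clustering the B lineage level was 18559 CPM (13813) and 71 genes were called in DC. At resolution 1.0 the B lineage level was 18349 CPM. In mural cells 1 of 1 member tested was called, beside 1556 of 8564 genes, and 7 genes were called in myeloid cells. With up to 60000 UMIs the MOL level was 14.9 CPM, 11 genes were called in myeloid and 84 in NB-like cells, and 0 members in T/NK cells. Thinned to 2000 UMIs the age test called 33 genes in DC, 22 in cDC2-like, 9 in myeloid and 14 in NB-like cells. The share of cells with a member UMI was 99.01% without thinning and 98.98% at 1000 UMIs in cDC2-like cells (100% at 2000), and 22.4% and 3.47% in MOL (8.27%). Without pan-immune cells, an alternative chosen after seeing the data, 1 of 2 members tested was called in EC, beside 607 of 7744 genes. A member could pass the low-count filter there through the P70 mice, so this call is no support for a change. Leaving out 1 mouse gave 0 to 2 members in DC, 0 to 1 in cDC2-like, 0 to 6 in EC, 0 to 6 in mural, 0 to 1 in myeloid, 0 to 4 in NB-like and 0 to 1 in T/NK cells, and 0 to 9 for EC against DC and 0 to 1 for EC against mural cells. Genes called then ranged from 117 to 625 in DC, 64 to 549 in cDC2-like, 154 to 1616 in EC, 729 to 1909 in mural, 16 to 492 in myeloid, 41 to 504 in NB-like, 0 to 1 in OL-like and 11 to 238 in T/NK cells. The members tested in these fits numbered 9 in DC and in cDC2-like cells, 4 to 6 in EC, 0 to 6 in mural, 8 to 9 in myeloid, 0 to 4 in NB-like and 0 to 2 in T/NK cells. Each of these fits left 1 mouse in an age group, so a member could pass the low-count filter through mouse 6 alone. H2-Aa had 4, 2, 183 and 0 UMIs in mural cells and 0, 1, 48 and 4 in NB-like cells. Calls of members in these fits are therefore no support for a change. In EC the log2 fold changes ranged from -1.01 to 4.74 for H2-Aa, -6.99 to 4.54 for H2-Ab1 and -1.95 to 4.16 for Cd74, the negative values without P70 replicate 1. With 2 mice per age and 40 EC and 22 T/NK cells in mouse 7, values near 1 UMI limit both classes.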

Other observations

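Levels of proteases and transcription factors of the pathway were compared among the presenting clusters. Ctss, the cathepsin that finishes the trimming of the invariant chain in DC and macrophages, was higher in myeloid cells (3857 ± 749 CPM, SD, n = 4) than in cDC2-like cells (1363 ± 265 CPM), whereas each class II member was lower there. Ctsd, an aspartic protease of lysosomes, was at 870 ± 536 CPM in myeloid and 32.9 ± 17.5 CPM in cDC2-like cells. Ctsl was at 31.5 ± 11.4 CPM in cDC2-like cells, 174 ± 41.2 CPM in myeloid cells and 250 ± 67.1 CPM in EC, and at 1282 CPM in the pDC-like cells of mouse 6. Those pDC-like cells, low in class II RNA, also held 1609 CPM of Ctsb and 3959 CPM of the transcription factor Irf8.

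Irf8 was at 997 ± 124 CPM in migDC-like cells (n = 2), 532 ± 116 CPM in cDC2-like cells and 312 ± 43.0 CPM in myeloid cells. Spi1, which encodes the myeloid factor PU.1, was at 464 ± 27.2 CPM in cDC2-like and 509 ± 66.5 CPM in myeloid cells, a difference within the spread between mice. Marchf1, a ubiquitin ligase that removes class II molecules from the surface, was at 120 ± 41.1 CPM in cDC2-like cells, 102 ± 37.7 CPM in myeloid cells and 31.7 ± 30.6 CPM in migDC-like cells. Ifng, the cytokine that induces Ciita, was at 175 ± 168 CPM in T/NK cells.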
